A study of Sus scrofa with 9 samples.

Results

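miR-21 was followed through both arms of its hairpin in the spleen of the Ningxiang, a pig breed native to China. Small RNA from total spleen RNA was sequenced at 3 postnatal ages, day 30, day 90 and day 210. Each age had 3 libraries, and the labels name no treatment. They also do not tell whether separate pigs stand behind libraries of equal age, so p-values reflect the library-to-library spread alone, which may be technical. Entries were chosen by name, ssc-miR-21 with either arm or no arm named and any length variant. The rule found 2 of the 975 entries kept, miR-21-5p and miR-21-3p, with 1 length variant each.

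A miRNA hairpin is cut by Dicer into a duplex, from which usually one strand is kept in an Argonaute protein and the other is degraded. The kept strand finds target transcripts mainly through its seed, the bases near its 5′ end. In human and mouse, miR-21 is induced by STAT3, NF-kB and AP-1 signalling, rises in activated lymphocytes, macrophages and fibroblasts, and represses PDCD4. In human, its primary transcript overlaps the end of VMP1, a gene of autophagy. In the RefSeq annotation of Sscrofa11.1 the pig gene MIR21 lies between the protein-coding genes PTRH2, a mitochondrial peptidyl-tRNA hydrolase, and TUBD1, a delta-tubulin. PTRH2 is 132038 bases away and TUBD1 14581, and no annotated gene overlaps MIR21 there. The place of VMP1 in the pig was not looked up. The table's own genome build is not given in the sources used here, so no positions are printed.

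Both mature sequences are shown because the arms pair with each other and differ in seed. They are taken from the deposited table, 5′ to 3′ in DNA letters, with the seed (bases 2 to 8) in capitals.
miR-21-5p: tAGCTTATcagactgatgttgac
miR-21-3p: cAACAGCAgtcgatgggctgt

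The 5p entry is 23 bases long with a GC content of 39.1%, and the 3p entry is 21 bases long with 57.1%. In its name in the table the 5p entry has the suffix R+1, the usual mark of this program for a 3′ end 1 base longer than the database form. 0 other entries among the 975 shared the seed of either arm, so no second miRNA in the table has the same seed as miR-21. By edit distance the nearest other entries were 7 changes away from each arm, mir-101-2-p5 for the 5p arm. A predicted duplex of both arms (RNAduplex, ViennaRNA 2.7.2) held 19 base pairs with a free energy of -24.2 kcal/mol. All 7 seed bases of the 5p arm were paired in it, and 2 bases of the 5p arm and 1 of the 3p arm were left unpaired at the 3′ ends.

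The values are normalised read numbers on the authors' scale. The depth was estimated from the table at between 4.50 and 9.25 M reads per library (M, mega), lowest in day 210 replicate 3. That library also had the most entries at 0 (433 of 975) and the lowest array weight in limma (0.196, against 0.862 to 2.71 in the others), a weight estimated from the same values. The comparisons of miR-21-5p, its day 210 spread and its likeness to other miRNAs are therefore given with and without it. So are the counts of the lists of inflammation and fibroblast miRNAs. The calls of cell type markers are given from all 9 libraries only.

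miR-21-5p was among the abundant spleen miRNAs at every age. Its mean over the 9 libraries was 64541 ± 19865 (SD), or 0.955% of all values, which placed it 26th of 975 entries. In single libraries its rank ran from 16 to 36 and its share from 0.430% to 1.33%. Just above it by mean stood miR-423-3p (71557), miR-151-5p (70300.3) and an entry of miR-339 (67558). Just below it stood miR-146a-5p (63654), a brake on NF-kB signalling, miR-342 (62631) of lymphocytes and miR-29a-3p (60666), known for targeting collagens. Each of these 6 was above miR-21-5p in 3 to 5 of the 9 libraries, so its place among these neighbours was not fixed.

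At day 30 the miR-21-5p value was 76992, 45928 and 63475 in replicates 1, 2 and 3. At day 90 the replicates held 85377, 65717 and 83719. The day 210 replicates held 41662, 33838 and 84162. The day 90 libraries were all high, but day 30 replicate 1 stood above day 90 replicate 2. Day 210 replicates 1 and 2 were the lowest of all 9 libraries, and day 210 replicate 3 was the second highest. Each pair of ages overlapped, where 27.9% (days 90 and 30), 29.2% (days 210 and 90) and 30.2% (days 210 and 30) of the tested entries did not. The values stood for an estimated 26210 to 110133 reads per library.

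**Figure D1:**
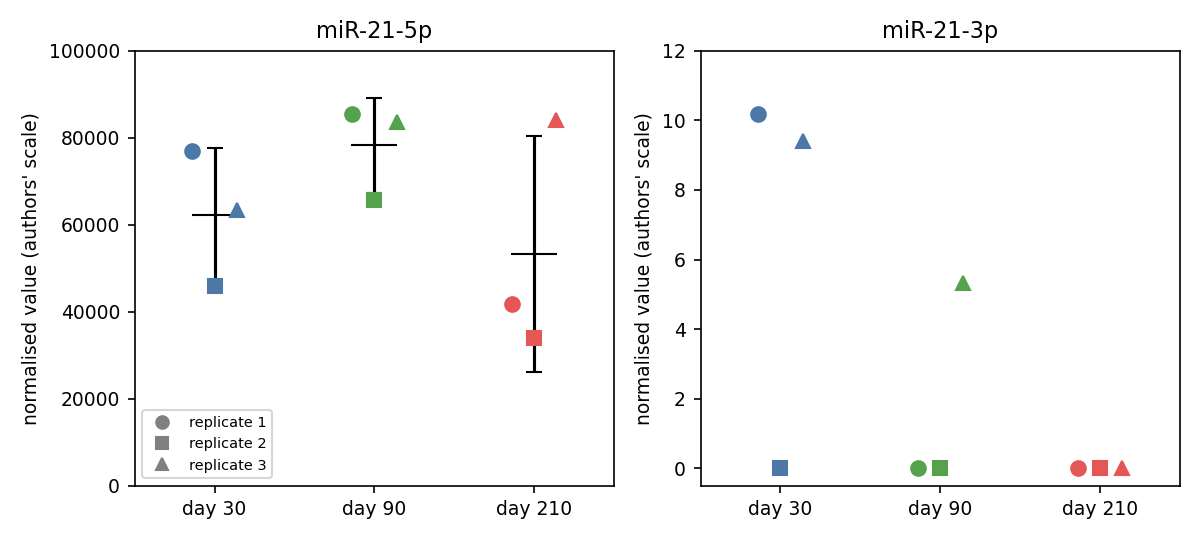
Normalised value (vertical axis, authors' scale) of miR-21-5p, left, and miR-21-3p, right, in each library by age; symbols mark the replicate, and for miR-21-5p the bars give the mean ± SD of 3 libraries. Day 210 replicates 1 and 2 (41662 and 33838) lie below all other libraries for the 5p arm, and the 3p arm is above 0 in 3 of 9 libraries.

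By mean, the order of the ages was day 90 (78271 ± 10904, SD, n = 3), day 30 (62132 ± 15575) and day 210 (53221 ± 27080). No neighbours in this order, nor its ends, differed beyond their spread. On the log2 scale miR-21-5p stood 0.36 ± 0.32 (SE) higher at day 90 than at day 30 (limma adjusted p 0.675). The 95% interval ran from -0.35 to 1.06, that is from 0.784-fold to 2.09-fold. At day 210 it stood at -0.66 ± 0.32 against day 90 (adjusted p 0.210, unadjusted p 0.0631; interval -1.37 to 0.04). Against day 30 it stood at -0.31 ± 0.32 (adjusted p 0.565; interval -1.01 to 0.40). The F test over the 3 ages gave an adjusted p of 0.319. Of the 630 entries tested, limma called 1.11% between days 90 and 30, 8.10% between days 210 and 90, 9.21% between days 210 and 30 and 10.3% by the F test. The 3 comparisons share libraries, so the first and second rest on the same day 90 values.

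One library decided the comparison of day 210 with day 90. Without day 210 replicate 3, miR-21-5p was 2.07-fold lower at day 210 than at day 90 (log2 -1.05 ± 0.21, interval -1.53 to -0.56, adjusted p 0.0132). The F test then gave an adjusted p of 0.0246. The remaining day 210 libraries lay below all 3 day 90 libraries, as in 25.9% of the entries tested in that fit, and below all 3 day 30 libraries, as in 27.7%. Against day 30 the log2 difference was -0.69 ± 0.21 (adjusted p 0.0607). The lone pair left at day 210 shared its estimate of spread with the other ages, and that fit called 18.0% of 621 entries between days 210 and 90 (11.0% lower) and 14.5% between days 210 and 30. With array weights, which gave this library a weight of 0.196, the log2 difference between days 210 and 90 was -0.93 ± 0.23 (adjusted p 0.0232). Those weights are estimated from the spread of the same values, so this fit does not stand apart from leaving that library out. Leaving out any 1 of the other 8 libraries brought no call of miR-21-5p in the 3 comparisons. Without day 210 replicate 2 the difference to day 90 was -0.39 ± 0.31 (adjusted p 0.478), and that to day 30 was -0.04 ± 0.31.

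**Figure D2:**
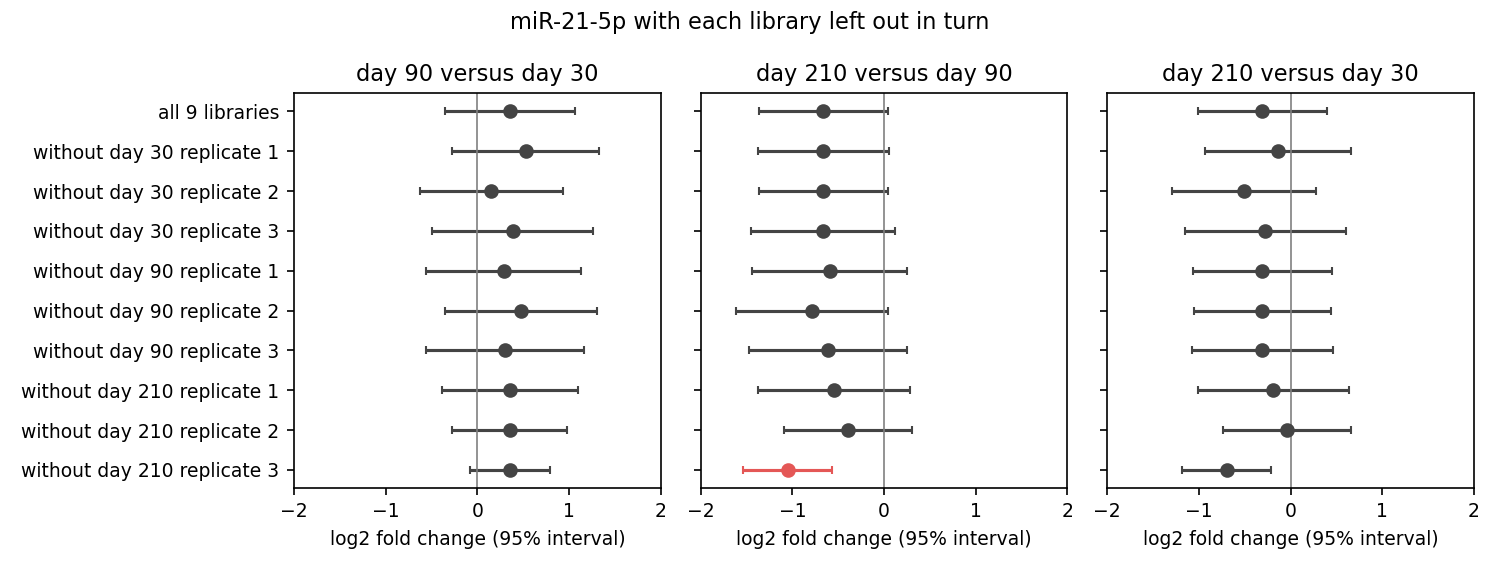
Log2 fold change of miR-21-5p (horizontal axis) with its unadjusted 95% interval in each comparison of ages, from all 9 libraries and with each library left out in turn (vertical axis). Red marks an adjusted p under the threshold; only the fit without day 210 replicate 3, for day 210 versus day 90, is red (-1.05).

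As a share of all values, which does not depend on the authors' scaling, miR-21-5p took 0.976 ± 0.276% at day 30, 1.17 ± 0.175% at day 90 and 0.718 ± 0.395% at day 210 (SD, n = 3). The difference was 0.193 percentage points between days 90 and 30 (exact two-sided permutation p = 0.4). It was -0.451 points between days 210 and 90 (exact p = 0.2) and -0.258 points between days 210 and 30 (exact p = 0.4). The adjusted p was 0.4 for all 3, and the smallest p that 3 libraries against 3 allow is 0.1. Without day 210 replicate 3 the last 2 differences were -0.676 points (exact p = 0.1, the smallest possible there) and -0.483 points (exact p = 0.2). With each library left out in turn the 3 differences ran from 0.054 to 0.330, from -0.676 to -0.307 and from -0.483 to -0.114 points. As a share of the values outside the 10 most abundant entries they were 0.391, -0.840 and -0.449 points. In bulk spleen, a difference in the number of cells with miR-21 and a difference in miR-21 per cell cannot be told apart.

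At days 30 and 210 the spread of miR-21-5p between libraries was wide for a miRNA of its level. At day 210 the SD of its log2 value was 0.69, and 2 of the 71 entries with a mean of at least 10000 had a larger one, miR-451 (1.06), a red cell miRNA, and miR-125a (0.78). The median SD of those 71 was 0.23. Between day 210 replicates 1 and 2 alone its SD was 0.21, with 5 of the 71 above it and a median of 0.10. At day 30 its SD was 0.38 against a median of 0.15, with 3 of the 71 above it, and at day 90 it was 0.21 against 0.14, with 16 above it. Over all 630 tested entries, most of which are scarce, its day 210 SD was exceeded by 245. In day 210 replicate 3 miR-21-5p stood at 2.23 times the mean of the other day 210 libraries, where the median of the 71 stood at 1.01 times. Only miR-451 among the 71 had a higher ratio (3.33). Next after miR-21-5p came miR-30b-5p (2.04) and the 5p arm of the blood cell miRNA miR-142 (1.99).

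**Figure D3:**
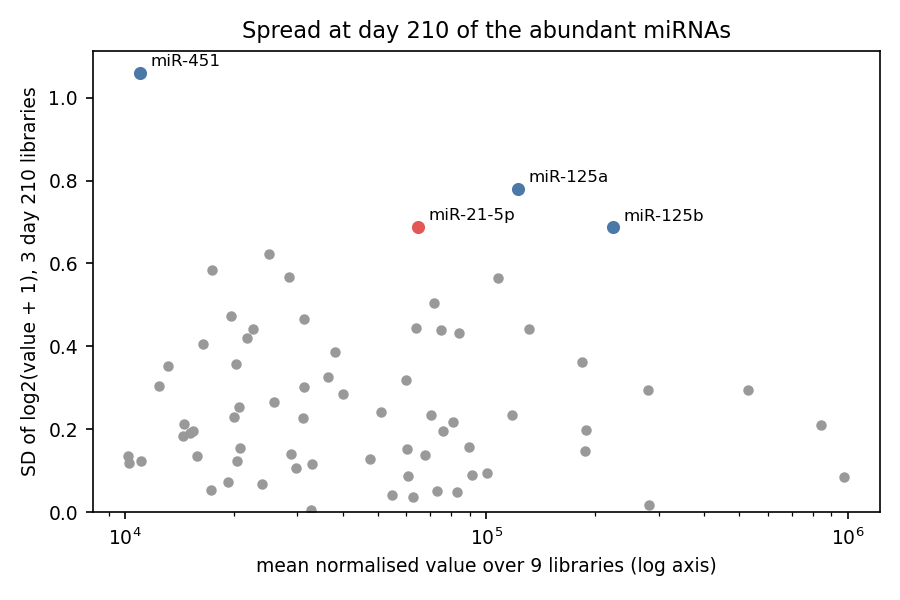
SD of log2(value + 1) over the 3 day 210 libraries (vertical axis) against the mean normalised value over 9 libraries (horizontal log axis) for the 71 entries with a mean of at least 10000; each point is 1 entry. miR-21-5p, in red, at 0.69 is exceeded by miR-451 and miR-125a.

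miR-21-3p, the strand usually degraded, was at the edge of detection. It was listed at 10.2 and 9.41 in day 30 replicates 1 and 3 and at 5.32 in day 90 replicate 3. These values stood for an estimated 12, 13 and 7 reads. In the other 6 libraries, all 3 of day 210 among them, it was listed at 0. The 3 libraries with a listed value had the highest estimated depths, 7.26, 8.94 and 9.25 M reads in the same order. The 6 at 0 had 4.50 to 7.01 M. The part of depth in this pattern was not tested. Most sequences with fewer than 5 reads are listed at 0, and 5 reads correspond to between 3.62 in day 30 replicate 3 and 8.001 in day 210 replicate 3. The 3p values above 0 are thus close to the level at which listing ends, and its absence from day 210 was not distinguishable from a level under that limit.

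The 3p arm passed the filter on low values through exactly 3 libraries. Its log2 difference between days 90 and 30 was -1.40 ± 1.21 (limma adjusted p 0.664). No fold change is given for day 210, where every library was at 0; the adjusted p was 0.668 against day 90 and 0.241 against day 30. With every value under 10 raised to 10, the difference between days 90 and 30 was -0.01. The floor fixed it near 0, since of the 3p values only that of day 30 replicate 1 (10.2) was above 10. Where both arms were listed, the 5p value was 7560 times the 3p value in day 30 replicate 1, 6744 times in day 30 replicate 3 and 15733 times in day 90 replicate 3. The 3p arm thus made up at most 0.0148% of both arms in a library where it was listed. The log2 difference between arms, on log2(value + 1), was 13.6 ± 1.63 in the day 30 libraries (SD, n = 3), and 15.4 ± 1.46 and 15.6 ± 0.689 in those of days 90 and 210. None of the 3 pairs of ages differed beyond the spread (exact permutation p = 0.2, 0.9 and 0.3; adjusted p 0.45, 0.9 and 0.45). Where the 3p arm is at 0 this difference only follows the 5p value.

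Among 404 other tested pig miRNAs, the 5 whose log2 values followed miR-21-5p most closely over the 9 libraries were ranked by Pearson r. They were miR-15a (r = 0.97), a restrainer of the cell cycle, mir-16-1-p3 (0.94), the 3p strand of its cluster partner miR-16-1, miR-7-3p (0.93), miR-17-5p (0.93) of the proliferation-linked miR-17-92 cluster and miR-142-3p (0.93) of blood cells. miR-15a ran from 518 in day 30 replicate 2 to 919 in day 30 replicate 1, and from 438 to 894 among the day 210 libraries. Like miR-21-5p it was lowest in day 210 replicate 2 and high in day 210 replicate 3. Without that library the 5 values of r were between 0.93 and 0.97. The median r of the 404 was 0.11. The 3 lowest were miR-574-3p (-0.94), miR-125a (-0.93), of a family known from hematopoietic stem cells, and mir-378-1-p5 (-0.91). miR-125a stood at 189666, 179280 and 72332 in the day 210 libraries, low where miR-21-5p was high.

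These correlations describe 9 libraries that share their normalisation, and no test was made. Base composition moved with them. The 5 most alike had a GC content of 31.8% to 47.8%, miR-21-5p itself 39.1%, and the 3 least alike all lay above the 47.8% that was the median of the 404, up to 59.1%. Across the 404, GC content and r with miR-21-5p had a Pearson correlation of -0.35. The part of base composition in the pattern was not tested. Estimated depth and miR-21-5p had r = 0.12 over the 9 libraries.

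**Figure D4:**
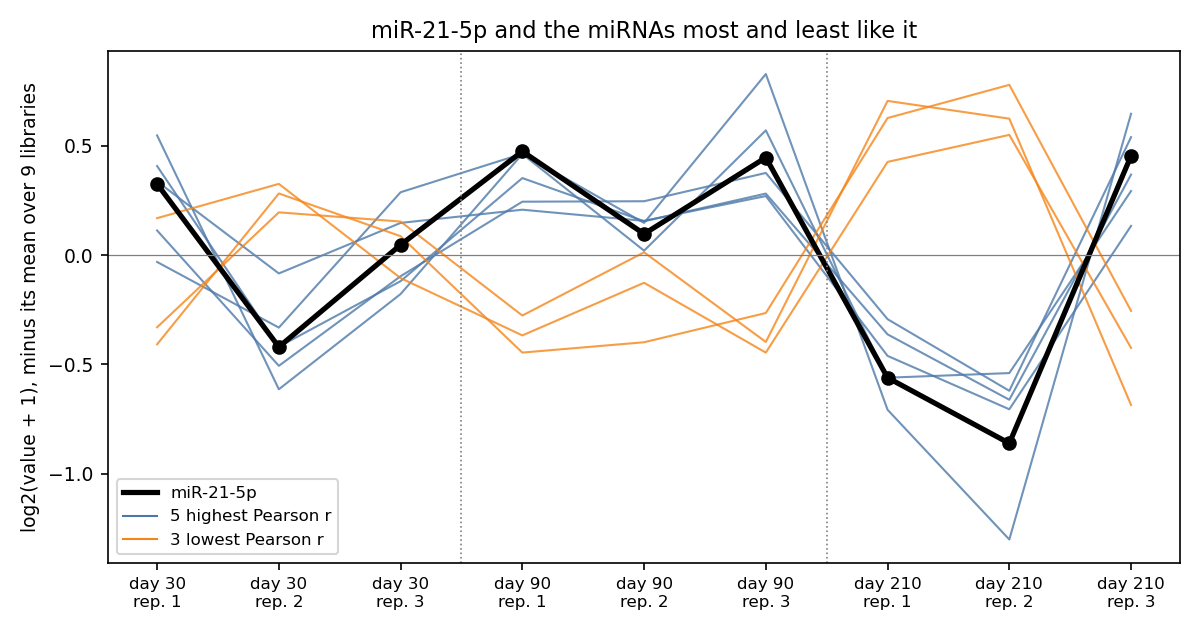
log2(value + 1) minus its mean over the 9 libraries (vertical axis) in each library (horizontal axis) for miR-21-5p in black, the 5 pig miRNAs with the highest Pearson r in blue and the 3 with the lowest in orange; lines only join the points of 1 miRNA. The blue lines dip with miR-21-5p in day 210 replicates 1 and 2 and are high in replicate 3, and the orange lines do the reverse.

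Other miRNAs that inflammation induces in immune cells were set beside miR-21-5p, as 11 tested entries of miR-146a, miR-146b, miR-155, miR-132, miR-212, miR-9 and miR-187. Between days 90 and 30 10 of the 11 had higher values and 0 were called by limma, with a median log2 difference of 0.60, against -0.04 over all tested, of which 0.794% were called higher. Between days 210 and 90 2 had higher values, 1 was called lower and the median was -0.51, against -0.14 over all tested, of which 3.97% were called lower. The called entry was miR-146b, a brake on NF-kB signalling like miR-146a. It stood at 3423, 2760 and 4535 at day 30, at 10090, 7930.5 and 7052 at day 90 and at 2073, 1362 and 3923 at day 210. The day 210 libraries lay below all day 90 libraries, as in 15.9% of the tested entries (log2 -1.89 ± 0.35, limma adjusted p 0.0149). Between days 210 and 30 6 of the 11 were higher, with 0 called, where 9.21% of all tested were called in either direction, and a median of 0.17 against -0.15 over all. Without day 210 replicate 3, 3 of the 11 were called higher between days 90 and 30 (miR-146a-5p, miR-146b and miR-155-5p, with 2.09% of all called higher). In that fit 4 were called lower between days 210 and 90 (the same 3 and mir-9-3-p3, with 11.0% of all called lower), and 1, miR-146b, lower between days 210 and 30 (8.21% of all). mir-9-3-p3 was scarce, at 8.53 and 9.04 in day 210 replicates 1 and 2. The other, more abundant miR-9 entry stood at -0.09 ± 0.21 between days 210 and 90 with all 9 libraries. The library left out is not part of the comparison of days 90 and 30. The median there stayed at 0.60, while the estimate of spread that the ages share changed.

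miR-21 is also known from fibrosis, so 12 tested entries of fibroblast and matrix miRNAs (miR-199a, miR-199b, miR-214, the miR-29 family and miR-192) were set beside it. Between days 90 and 30 7 had higher values, 1 was called higher (0.794% of all tested) and the median was 0.09, against -0.04 over all. Between days 210 and 90 5 had higher values, 0 were called (8.10% of all in either direction) and the median was -0.08, against -0.14 over all. Between days 210 and 30 6 were higher with 1 called higher (4.60% of all) and a median of 0.11, against -0.15 over all. The called entry was in both cases miR-29a-3p, which is known to repress matrix genes. miR-199a-5p, from a fibroblast locus, stood at -0.07 ± 0.17, -0.13 ± 0.17 and -0.19 ± 0.17 in the same 3 comparisons. Without day 210 replicate 3, miR-214-3p was called higher between days 210 and 90 (7.09% of all), and the counts of the other comparisons were the same.

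Markers of blood and tissue cells moved with miR-21-5p in part. The summed value of both miR-142 entries, a marker of blood cells, ran from 11135 to 17337 at day 30, from 19565 to 26441 at day 90 and from 11528 to 24535 at day 210. The 4 erythroid entries of miR-451, miR-486 and miR-144 summed to 15455 to 23770, 15366 to 23105 and 8179 to 24509 in the same order. In day 210 replicate 3 the erythroid sum was 2.28 times and the miR-142 sum 1.99 times the mean of the other day 210 libraries, beside 2.23 times for miR-21-5p. The erythroid ratio came from miR-451, at 7530, 5005 and 20851 in the day 210 libraries. miR-486 stood at 5694, 3117 and 3591 there and miR-144 at 43.7 in replicate 1, 24.5 in replicate 2 and a little lower in replicate 3, so neither was high in replicate 3, while mir-144-p5 stood at 26.7, 32.3 and 43.2. miR-486 (log2 -1.23 ± 0.21, limma adjusted p 0.00873) and mir-144-p5 (-1.54 ± 0.36, adjusted p 0.0266) were called lower at day 210 than at day 30, where 4.60% of all tested were called lower. The myeloid miR-223 sum stood there at 0.988 times and ran from 4962 to 9433, 7912 to 9476 and 4776 to 6359 over the ages. The sum of the lymphoid entries of miR-150, miR-342, miR-181a and miR-181b stood at 0.971 times and that of the smooth muscle miRNAs miR-143 and miR-145 at 1.06 times. Over the 9 libraries the log2 sums had a Pearson r with miR-21-5p of 0.91 for miR-142, 0.87 for the erythroid list, in which miR-451 is the most abundant, 0.71 for the myeloid, -0.30 for the lymphoid, -0.44 for the smooth muscle and -0.67 for the striated muscle list. Without day 210 replicate 3 they were 0.89, 0.86, 0.90, -0.43, -0.74 and -0.81 in the same order. The part of any of these cells in the miR-21-5p values was not tested.

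Over the 3 ages in order, lymphoid sums ran from 201056 to 229410, 232574 to 276405 and 271958 to 286973, and smooth muscle sums from 1046668 to 1059875, 813448 to 1111918 and 1274003 to 1532620. The endothelial miR-126 sum ran from 50274 to 64233, 40192 to 51883 and 37837 to 45799. Entries within a list did not all move alike. Between days 210 and 30, 4 of the 7 tested lymphoid entries were higher. miR-150 was called higher (log2 0.94 ± 0.12, limma adjusted p 0.00388), where 4.60% of all tested were called higher. miR-181b stood at -0.31 ± 0.12 and mir-342-p5 at -0.47 ± 0.18. Of the 4 smooth muscle entries 3 were higher, and miR-145-5p was called higher (0.78 ± 0.17, limma adjusted p 0.0232). Markers of other tissues were also read. The striated muscle sum was between 5464 and 14587, the epithelial sum of miR-200b and miR-205 between 158 and 703 and liver miR-122 between 105 and 233. limma also called miR-150 higher between days 90 and 30 (log2 0.75 ± 0.12, adjusted p 0.0190), with 0.794% of all called higher. In that comparison 4 of the 7 lymphoid entries were higher. Between days 210 and 90 limma called miR-342 (0.56 ± 0.12, adjusted p 0.0205), miR-145-5p (1.17 ± 0.17, 0.00683) and miR-133a-3p (1.04 ± 0.20, 0.0185) higher. There 4.13% of all were called higher. Only 3 of the 7 lymphoid entries were higher there, with a median of -0.08, against -0.14 over all tested. All 4 smooth muscle and all 4 striated muscle entries were higher. Between days 210 and 30 limma called miR-205 higher (2.59 ± 0.63, adjusted p 0.0324), although it ran from 18.7 to 107 within day 30. The other tested epithelial entry, miR-200b, stood at 0.005 ± 0.51 there. Every name of the lymphoid, myeloid, blood cell, erythroid, smooth muscle, endothelial, striated muscle and liver lists had an entry above 0. miR-124, miR-147, miR-200c and miR-203 were not analysed here.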

How the data were processed

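Per the labels' protocols, Trizol-extracted RNA went into TruSeq small RNA libraries, and the program ACGT101-miR filtered the reads for adapter, junk, repeat and rRNA, tRNA, snRNA or snoRNA sequence. Not given in the sources used here are the aligner, genome build, miRNA database and scaling. Each deposited value is, per the file headers, the normalised read number of a mature sequence. It is a signal that the authors scaled, not a raw count. Of 980 entries 5 were dropped because they repeated the values of another together with its sequence or its name, which left 975 (453 pig miRNAs and 522 candidates). Suffixes after a _ sign are left out of names.

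Between 87.8% and 91.3% of the values above 0 in a library were whole multiples of 1 step (tolerance 0.01 of a step), with the commonest low value taken as 5 reads. The numbers that end the candidates' names bear on this: of 195 candidates above 0 in 1 library only, 187 had a number equal to the reads so estimated. Without raw counts no counting interval was computed, and the labels name no molecular identifiers.

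limma 3.58.1 in R 4.3.3 modelled log2(value + 1) by age over the 9 libraries, with a mean-variance trend. An entry was tested where 3 or more libraries reached a value of 5 (630, of which 406 are pig miRNAs), with Benjamini-Hochberg adjustment over all of them and a threshold of 0.05. Shares and arm differences were compared by exact two-sided permutation tests. The procedure was tested on simulated data. Alternatives were other pseudocounts, filters, scalings and weights, the replicate number as a block and each library left out in turn. The entries, their lists and the rule for named miRNAs (all miR-21 entries, shared seeds, neighbours in level, the most and least alike, list members) were chosen with earlier results of these data known. Which members of the lists were printed with values was chosen after their values were seen.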

Additional observations from a re-analysis of the deposited data

How the results depend on the processing

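miR-21-5p kept its direction in each comparison under every alternative run, with log2 differences of 0.15 to 0.53 (day 90 versus day 30), -1.05 to -0.39 (day 210 versus day 90) and -0.69 to -0.04 (day 210 versus day 30). It became called between days 210 and 90 without day 210 replicate 3 (-1.05) and with array weights (-0.93), as did its F test (adjusted p 0.0246 and 0.0360; 0.0246 to 0.546 over the fits that left out 1 library). Rescaling to equal sums moved the median of all entries between days 210 and 90 from -0.14 to -0.30 and miR-21-5p to -0.83. miR-21-3p was never called, and with a common floor of 10 its difference between days 210 and 90 was 0 by construction, since its values there were all under 10. The arm difference between days 210 and 90 (0.23) turned to -0.31 with a pseudocount of 5, -0.66 with the common floor, and ran from -0.61 to 0.74 with 1 library left out, below 0 without day 90 replicate 3 and without day 210 replicate 3 (-0.16); that between days 210 and 30 turned to -0.30 with the common floor, where the 3p arm hardly varies by construction. Summing length variants was not run, since each arm has 1.

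The number of entries called between days 90 and 30 was 7, and 15 with the common floor, 81 with array weights, 29 with only the ages compared and 1 to 20 with 1 library left out. Between days 210 and 90 it was 51, and 24 without the trend, 100 with array weights, 14 with only the ages compared and 8 to 112 with 1 library left out. Between days 210 and 30 it was 58, and 36 with the common floor, 92 with equal sums, 109 with array weights, 11 with only the ages compared and 9 to 90 with 1 library left out. The cause was not tested. The labels do not say whether libraries of different ages with the same replicate number are paired (correlations of their deviations from -0.10 to 0.19). With that number as a replicate block the count between days 90 and 30 was 1, and miR-21-5p stayed uncalled (adjusted p 0.120 between days 210 and 90). The list counts and the day 210 SD without day 210 replicate 3 were chosen after seeing the data. Depth limits the 3p arm, which lies near the level where listing ends.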

Other observations

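The 5 pig miRNAs whose log2 values over the 9 libraries were most like those of miR-21-3p were miR-455-5p (Pearson r = 0.86), the endothelial miR-126-3p (0.85), miR-218-5p (0.83), an entry of miR-301 (0.81) and mir-152-p5 (0.75). These values rest on the 3 libraries in which miR-21-3p was above 0, and no test was made. The miR-301 entry was itself near the level where listing ends, with a mean of 3.18 and a value of 0 in every day 210 library. miR-126-3p stood at 61699, 48773 and 59398 at day 30 and at 36740, 41098 and 43836 at day 210, so it was high in the day 30 libraries in which the 3p arm was listed. None of the 5 was among the 5 most like miR-21-5p.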
